A study of Mus musculus with 8 samples.

Results

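Enzyme families that attach a polar group to small molecules were followed through 8 RNA-seq libraries of mouse vomeronasal epithelium. The members are the protein-coding genes whose GENCODE M21 symbol begins with Ugt1 to Ugt3, Sult and a digit, Gst and a cytosolic, mitochondrial or zeta class letter, or Mgst, and there are 67 of them among the 48831 genes counted. They comprise 21 Ugt, 21 Sult, 22 Gst and 3 Mgst genes. The mice were C57BL/6J aged 8 weeks. Tissue came from 2 pools of males and 2 pools of females, each of 2 mice and described as non-flushed, and from 2 single males and 2 single females described as flushed. A protocol text common to the 8 labels mentions a heparin flush for every mouse; where it conflicts with a pool's own description, the latter was used. The labels name no introduced allele and no drug for any group. Pools are called 1 and 2 in listed order, and the single mice keep the numbers of their labels, 2 and 3 for the females and 1 and 3 for the males.

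Conjugating enzymes carry out the second phase of xenobiotic and steroid metabolism. UDP-glucuronosyltransferases (Ugt) transfer glucuronic acid from UDP-glucuronic acid, sulfotransferases (Sult) transfer sulfate from the donor PAPS, and glutathione S-transferases (Gst, with the membrane-bound Mgst) join glutathione to electrophiles. In rodent nasal tissue such enzymes are known from supporting cells and glands, where cytochrome P450 products and odorants are cleared, and the rat enzyme UGT2A1 was described in olfactory mucosa as a glucuronosyltransferase acting on odorants.

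The depth was 18763557 to 22096792 counts in the pools and 22101913 to 24965088 in the flushed single mice. Levels are given as RPKM, reads per kilobase of exon scaled to library size with TMM. The vomeronasal neuron markers summed to 1118 to 1425 CPM (the same scaling without the division by exon length) over the 8 libraries, with the defining channel gene Trpc2 listed at 0; all its exon bases also belong to overlapping genes, and reads on more than 1 gene were not counted. Hepatocyte markers summed to 1.13 to 2.50 CPM with Cyp3a11 at 0. Markers of blood, bone and connective tissue moved with preparation: 10 of 10 erythroid and 9 of 10 neutrophil genes were lower in the flushed single mice, as were 7 of 11 fibroblast and matrix genes and 7 of 10 bone genes. Of the fibroblast and matrix list 2 genes, Dcn and Lum, were higher (log2 0.28 and 0.32). The erythroid sum was 1735 to 2155 CPM in the pools and 174 to 697 CPM in the flushed mice, and the fibroblast and matrix sum was 39564 to 50315 against 19376 to 25508 CPM. Also lower in the flushed mice were 6 of 10 endothelial, 6 of 10 glial, 6 of 13 sustentacular, 5 of 15 gland, 4 of 11 vomeronasal neuron and 3 of 13 ciliated cell genes, with 0 or 1 higher in each of these 6 lists. Olfactory neuron genes gave 2 higher and 1 lower of 8, and macrophage genes 2 higher and 2 lower of 10. The 2 higher olfactory neuron genes were Rtp2 and Slc17a6, while Cnga2, Gnal and Stoml3 were not called. Lower and higher here mean an edgeR adjusted p under 0.05, which 22.9% of all tested genes met as lower and 22.6% as higher. The ciliated cell genes that were lower, the olfactory neuron genes that were higher and both macrophage counts lie near those shares. In bulk tissue, fewer cells of a type and less RNA per cell cannot be told apart.

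The bases on which Ugt2a2 was counted are shown first, with promoters of 3 members that rose as context. Ugt2a2 (chromosome 5, 87459490 to 87482260, minus strand) shares most of its exons with Ugt2a1 (87459490 to 87490871) and with the overlapping gene Gm43638, so its reads could be counted only on the first 138 bases of its annotated transcript, whose protein-coding part of 88 bases (GENCODE M21, GRCm38, chr5:87475020-87475107, minus strand) is printed with its start codon in capitals. The other sequences are RefSeq promoter windows (GRCm38.p6, 250 bases before to 50 after the transcript start) of 2 neighbouring sulfotransferase genes that rose together and of Gsta3, the Gst gene that rose; capitals mark a match to GCGTG, the core of the xenobiotic response element, on the other strand, or to TGACNNNGC, the core of the antioxidant response element.
Ugt2a2 coding start, chr5:87475020-87475107, minus strand: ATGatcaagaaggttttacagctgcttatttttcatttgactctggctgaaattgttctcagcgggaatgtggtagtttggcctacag
Sult1e1 promoter, chr5:87591562-87591861, minus strand, no match to either core: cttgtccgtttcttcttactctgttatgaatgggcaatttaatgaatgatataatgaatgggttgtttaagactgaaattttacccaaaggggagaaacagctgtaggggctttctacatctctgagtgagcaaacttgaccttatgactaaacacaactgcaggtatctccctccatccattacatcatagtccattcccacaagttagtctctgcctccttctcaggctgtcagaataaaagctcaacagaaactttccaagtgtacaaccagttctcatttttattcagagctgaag
Sult1d1 promoter, chr5:87568957-87569256, minus strand, GCGTG read as CACGC: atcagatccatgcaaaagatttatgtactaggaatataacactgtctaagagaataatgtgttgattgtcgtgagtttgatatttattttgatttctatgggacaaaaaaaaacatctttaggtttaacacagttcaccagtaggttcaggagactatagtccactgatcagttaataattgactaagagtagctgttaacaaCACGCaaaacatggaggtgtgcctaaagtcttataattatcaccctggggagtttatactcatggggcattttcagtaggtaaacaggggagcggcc
Gsta3 promoter, chr1:21240335-21240634, plus strand, TGACNNNGC at base 130: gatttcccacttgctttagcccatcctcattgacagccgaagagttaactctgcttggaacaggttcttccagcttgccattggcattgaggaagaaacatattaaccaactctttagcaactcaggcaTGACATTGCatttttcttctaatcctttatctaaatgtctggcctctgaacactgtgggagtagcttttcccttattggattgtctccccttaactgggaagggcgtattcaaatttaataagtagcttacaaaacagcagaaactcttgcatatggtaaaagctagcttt

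Promoter windows were found for 59 of the 67 members, 71 windows in all. TGACNNNGC, searched on both strands, occurred in 4 of the 71 (5.63%), those of Gsta3, Gstm5, Gstm7 and Mgst1, and in 12.4% of the 32851 windows of all genes. GCGTG occurred in 14 of the 71 (19.7%) and in 32.4% of all windows. The 2 motifs can overlap, as at Gstm5, where a TGACNNNGC at base 209 runs into a GCGTG at base 213 on the other strand. These are letters in a window of 300 bases and say nothing of binding.

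Cytosolic and microsomal glutathione transferases led the members in level. Of the 67 genes, 40 had enough counts to be tested, 26 had a mean RPKM of 1 or more and 14 a mean of 10 or more. The 40 were 20 of 22 Gst, 3 of 3 Mgst, 9 of 21 Sult and 8 of 21 Ugt genes. Gst genes held 68.4 to 76.9% of the summed CPM of all members in a library, Sult genes 11.9 to 15.9%, Mgst genes at most 13.6% and Ugt genes 1.11 to 2.45%. Reads on shared exons were not counted for 11 of the Ugt genes, which lowers the Ugt share; over unshared exon length, 27 members had a mean of 1 or more and 15 a mean of 10 or more. The 5 genes of highest mean RPKM, Gsta4, Gsto1, Mgst3, Gstp1 and Gstm1, held 45.1 to 58.7%. The sum over all members was 827 to 993 CPM in pools and 768 to 986 in flushed mice, 923 ± 70.1 and 839 ± 99.4 on average (SD, n = 4 each), with overlap.

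**Figure D1:**
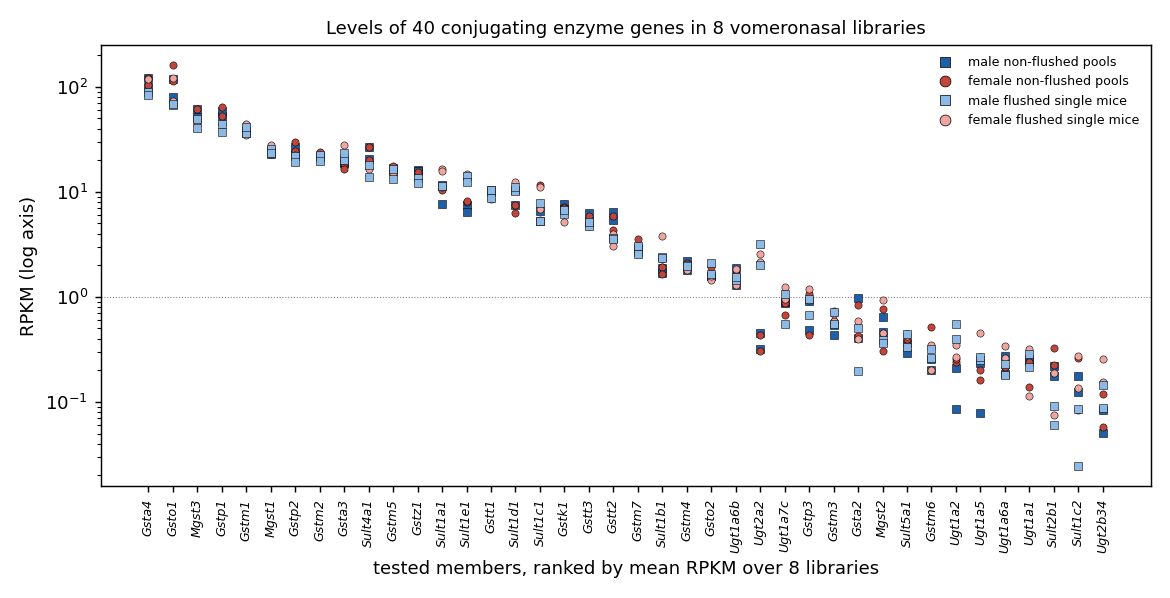
RPKM on a log axis of the 40 tested members in each of the 8 libraries, ranked by mean; squares are males, circles females, dark points pools and light points flushed single mice. Gsta4 and Gsto1 lie near 100 RPKM, the Ugt genes mostly below 1, and Ugt2a2 is the gene whose pools and flushed mice stand farthest apart.

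Several members were not detected. In all 8 libraries 15 members had a count of 0: Sult2a1, Sult2a3 to Sult2a7, Sult3a1, Sult3a2, Sult6b2, Ugt1a8, Ugt2b1, Ugt2b36, Ugt2b37, Ugt3a1 and Ugt3a2. The Sult2a genes encode the hydroxysteroid and bile acid sulfotransferases of liver, and Ugt3a enzymes are known in human for using sugars other than glucuronic acid. Another 12 had counts but too few to test, with 47.5 counts over all libraries at most, in Ugt2a3. Ugt2a3 read 0.0978 and 0.253 RPKM in male pools, 0.192 and 0.121 in female pools, 0.0662 and 0.117 in flushed females and 0.0998 and 0.110 in flushed males. Its groups overlapped. Gsta1 reached 0.142 RPKM on average, and 80.6% of its 100-base windows occur identically in another gene, mostly Gm3776, so this level is uncertain.

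Counting itself limits a good part of the Ugt family. The 9 Ugt1a genes of chromosome 1 (88055388 to 88220002) have first exons of their own and common last exons, and 12 members in all, 9 Ugt1a, 2 Ugt2a and Gstt3, share exon bases with another gene on their strand. Reads on shared bases were not counted, so RPKM over the whole exon length is too low for these genes. Over the unshared length alone, the mean of Ugt2a2 went from 1.43 to 26.0 RPKM, that of Ugt1a6b from 1.58 to 4.0, that of Ugt1a7c from 0.887 to 1.95, that of Ugt1a2 from 0.293 to 0.720 and that of Gstt3 from 5.24 to 6.54. Reads that ran from unshared into shared bases were not counted either, so these values can still be too low. Ugt2a1, the gene orthologous to the rat olfactory enzyme, has 30 unshared bases of 2570, fewer than a read of 100, and its 2 counts, both in flushed female 2, are no measure of its level. Ugt2a2 has 140 unshared bases of 2541 in 2 stretches, the longer of 113. Differences between libraries are computed on the same bases in each library and do not depend on the length used.

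**Figure D2:**
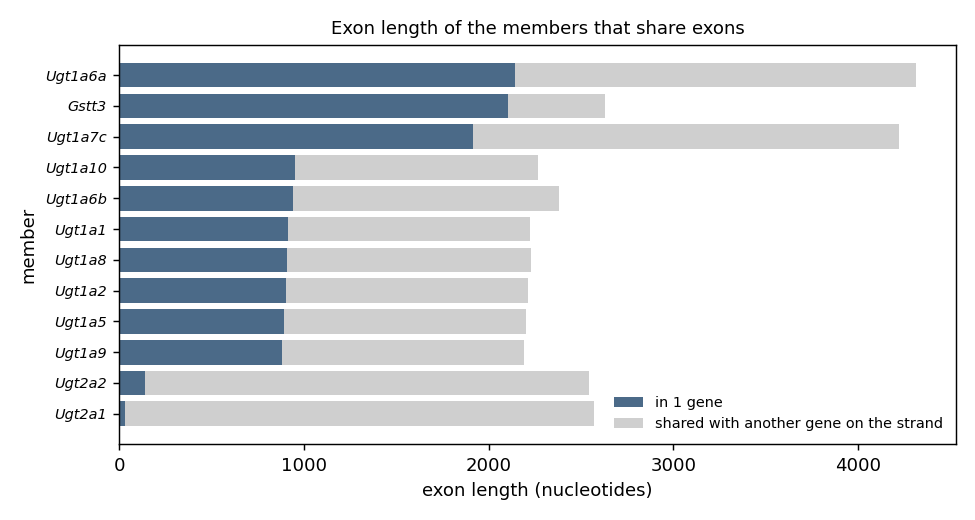
Exon length in nucleotides of the 12 members that share exons, divided into bases of 1 gene (dark) and bases shared with another gene on the strand (grey). Ugt2a1 has 30 and Ugt2a2 140 bases that no other gene on the strand shares.

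Gsta4 and Gsto1, the members of highest level, belong to the alpha and omega classes. Gsta4, whose enzyme conjugates the lipid peroxidation product 4-hydroxynonenal (chromosome 9, 78191966 to 78209348), read 99.1 and 121 RPKM in male pools, 122 and 103 in female pools, 88.3 and 119 in flushed females and 89.1 and 83.1 in flushed males. Flushed female 3 lay among the pools and the other 3 flushed mice below them. Gsto1, an omega-class enzyme that also reduces dehydroascorbate and arsenic species (chromosome 19, 47854970 to 47864790), read 80.4 and 119 RPKM in male pools, 162 and 113 in female pools, 72.6 and 122 in flushed females and 67.3 and 69.2 in flushed males. Female pool 1 was highest and flushed female 3 second. Its neighbour Gsto2 (47865545 to 47886324) had 1.57 and 1.59 RPKM in male pools, 1.94 and 1.55 in female pools, 1.44 and 1.57 in flushed females and 2.12 and 1.65 in flushed males, so the pair differed in which library was highest.

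Within groups, Gsto1 varied with an SD of 0.38 (log2 of CPM + 0.5, about the mean of each of the 4 groups). That is the 95.7th percentile of 17870 genes averaging at least 20 counts, whose median was 0.13. The 30 members with such counts had a median of 0.15. Above Gsto1 came Mgst2 (0.50) and Sult1c1 (0.49), and the lowest were Gstz1 (0.06) and Mgst1 (0.07). Sult1c1, a sulfotransferase of chromosome 17, read 6.57 and 5.24 RPKM in male pools, 11.6 and 5.42 in female pools, 6.84 and 11.1 in flushed females and 7.87 and 5.26 in flushed males. Its 2 highest libraries, female pool 1 and flushed female 3, are also the 2 highest for Gsto1 and Mgst2. Mgst2, whose human enzyme can form leukotriene C4, read 0.642 and 0.465 RPKM in male pools, 0.765 and 0.304 in female pools, 0.454 and 0.941 in flushed females and 0.385 and 0.364 in flushed males. The summed level of 13 ciliated cell markers was highest in the same 2 libraries, 965 CPM in female pool 1 and 1081 in flushed female 3 against 562 to 791 in the other 6; its part in these values was not tested.

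The 7 mu-class genes lie side by side on chromosome 3 (107895821 to 108044894), and the 3 of highest level varied about as much as the median gene. Their SD within groups, on the scale used for Gsto1, was 0.14 for Gstm1, 0.11 for Gstm2 and 0.13 for Gstm5. The median over all genes with such counts was 0.13. Gstm1 read 38.6 and 36.6 RPKM in male pools, 39.3 and 40.9 in female pools, 34.8 and 43.9 in flushed females and 36.6 and 41.1 in flushed males. Gstm2 read 21.3 and 21.8 RPKM in male pools, 20.1 and 23.9 in female pools, 20.3 and 20.8 in flushed females and 22.5 and 19.8 in flushed males. Gstm5 read 17.0 and 15.8 RPKM in male pools, 16.2 and 17.6 in female pools, 15.7 and 15.1 in flushed females and 16.6 and 13.2 in flushed males. In none of the 3 did males and females, or pools and flushed mice, separate. Gstm7, Gstm4, Gstm3 and Gstm6 followed with means of 2.87, 1.96, 0.603 and 0.303 RPKM. Gstm6 ran from 0.201 to 0.514 and Gstm3 from 0.431 to 0.734 RPKM over the 8 libraries, a wider span relative to the level than in Gstm1, Gstm2 and Gstm5. These spans rest on 7 to 20 counts in a library for Gstm6 and 9.83 to 22.83 for Gstm3, where counting noise is large. Gstm1 and Gstm2 had fractional counts in 6 of 8 libraries and Gstm3 in all 8, so the level of Gstm3 is uncertain.

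**Figure D3:**
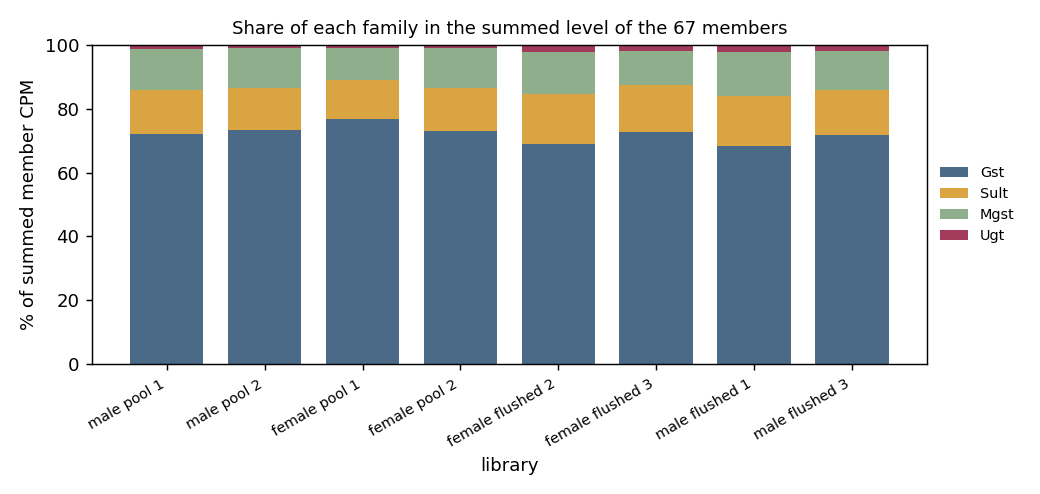
Percentage of the summed CPM of the 67 members held by Gst, Sult, Mgst and Ugt genes in each of the 8 libraries, as stacked bars. Gst genes hold over 68% in every library, and the Ugt share is 1.11 to 1.46% in pools and 1.94 to 2.45% in flushed mice, both without the reads on exons that 11 Ugt genes share.

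Male and female libraries were compared to see whether conjugating enzymes differ by sex, as several do in mouse liver. In edgeR's quasi-likelihood test with preparation as a second term, 0 of the 40 tested members passed an adjusted p of 0.05, against 24 of 20601 genes overall (0.116%). At an unadjusted p under 0.05 there were 2 members, beside 1640 of the 20601 genes, and DESeq2 called 0 members and 124 genes. In 0 of the 40 did the 4 male and 4 female libraries separate without overlap, against 1.71% of all genes. The p-values measure the spread between separate mice and pools.

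Gsto1 and Sult1a1 had the smallest p by sex. Gsto1, given above, averaged 83.9 ± 23.9 RPKM in males and 117 ± 36.7 in females (SD, n = 4 each), a log2 difference of males from females of -0.49 (SE 0.17, edgeR adjusted p = 0.52). Sult1a1, the phenol sulfotransferase (chromosome 7, 126672865 to 126676432), read 7.64 and 11.7 RPKM in male pools, 10.3 and 11.1 in female pools, 16.4 and 15.8 in flushed females and 11.4 and 11.4 in flushed males. The flushed females stood above the other 6 libraries, and the pools of both sexes overlapped. Its difference by sex was -0.33 (SE 0.13, edgeR adjusted p = 0.54). Sult1c1 (-0.49, SE 0.24), Ugt2b34 (-0.64, SE 0.35) and Sult2b1 (-0.60, SE 0.34) completed the 5 smallest, with edgeR adjusted p of 0.66, 0.71 and 0.71. All 5 had a lower mean in males, and 27 of the 40 tested members had a negative log2 difference, against 10488 of the 20601 genes. With no filter on low counts, edgeR called Gsto1 (adjusted p = 4.8e-09), Sult1c1 (9.0e-04) and Sult1a1 (0.025), in a fit that called 784 genes overall in place of 24.

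The sex by preparation interaction asked whether the sex difference itself changed with preparation. Again 0 of 40 members passed in edgeR, against 10 of 20601 genes (0.0485%), and DESeq2 called 0 members and 28 genes. At an unadjusted p under 0.05 stood 1 member, beside 670 of the 20601 genes; it was Gsta3, which was 0.58 higher (log2) in flushed mice among females and 0.19 higher among males. Groups of this test hold 2 libraries each.

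Flushed single mice and non-flushed pools differed more widely. Of the 40 tested members, 15 passed the edgeR test (37.5%), 7 higher and 8 lower in the flushed mice. Over all tested genes 45.5% passed, 22.6% higher and 22.9% lower, so the share of members called was not above that of all genes. In 12 of the 40 the 4 pools and 4 flushed libraries did not overlap, 6 above and 6 below, against 41.7% of all genes, 21.3% above and 20.4% below. The median log2 difference was -0.061 over the members and -0.017 over all genes; both turned positive, to 0.052 and 0.095, with no scaling beyond the total count, where 9 members were higher and 4 lower. Preparation also separates single mice from pools of 2, and in the deposited files a sequencing lane and a processing folder date, and these cannot be told apart. The parts of blood, bone and connective tissue in the differences were not tested.

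**Figure D4:**
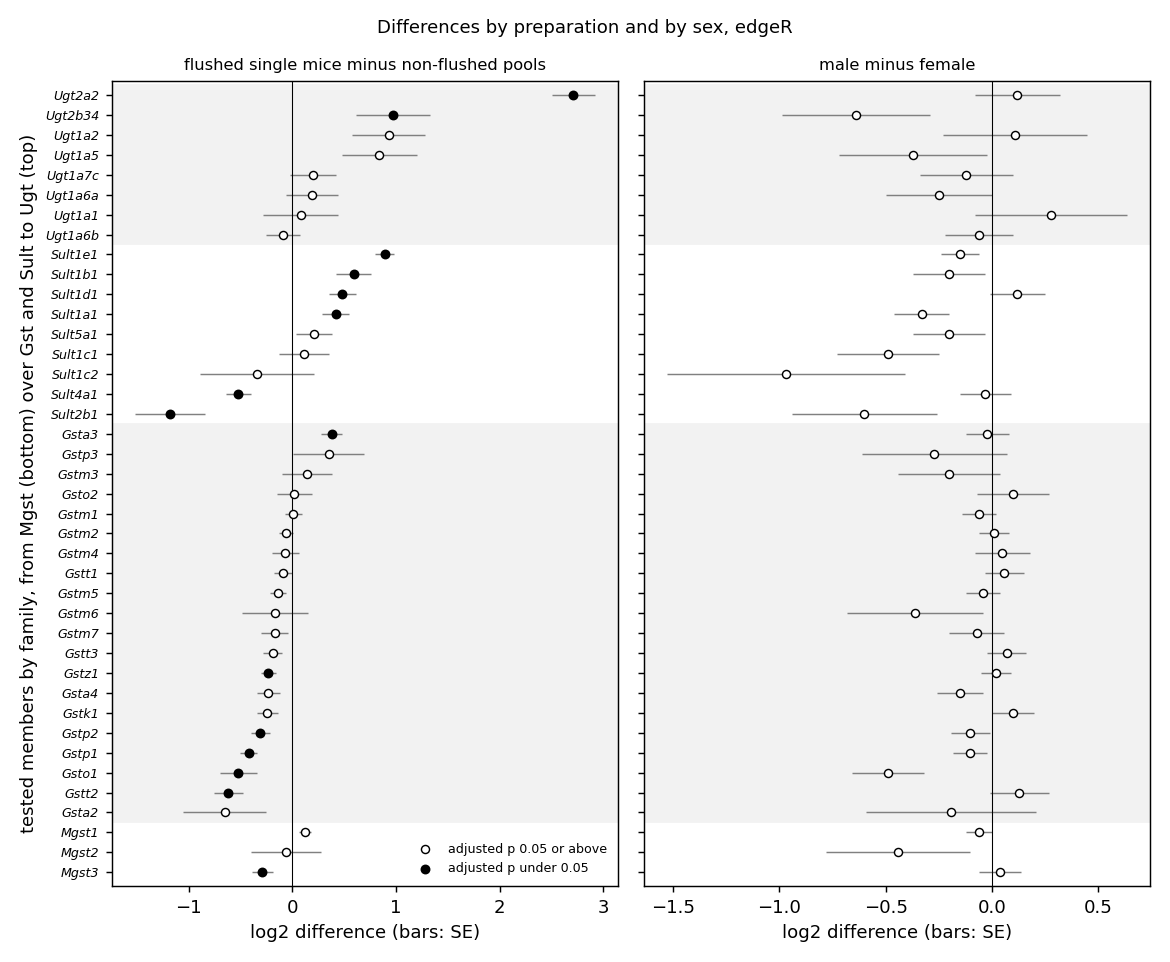
Log2 differences with SE of the 40 tested members by preparation (left) and by sex (right), from edgeR, grouped by family with Ugt at the top; filled points have an adjusted p under 0.05. Filled points appear on the left panel alone, 7 to the right of 0, led by Ugt2a2, and 8 to the left; the 2 panels have different scales.

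Among the tested members, a glucuronosyltransferase gene had the largest difference, and 2 of the 8 tested Ugt genes rose and 0 fell. Over all tested genes 22.6% rose and 22.9% fell. The 2 Ugt genes that rose are near the share of all genes. Ugt2a2 had 15 and 20 counts in male pools, 25 and 15 in female pools, 156 and 139 in flushed females and 206 and 114 in flushed males. Every flushed library lay above every pool. In RPKM over the whole exon length the mean was 0.377 ± 0.0776 in pools and 2.49 ± 0.540 in flushed mice, and over the unshared bases 6.84 ± 1.41 and 45.2 ± 9.80 (SD, n = 4 each). The log2 difference was 2.71 (SE 0.21, 6.55-fold, edgeR adjusted p = 2.3e-05), 2.66 among females and 2.76 among males, and it stayed between 2.55 and 2.83 with any 1 library left out. All of it rests on the 138 transcript bases whose coding part is printed above.

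Ugt2b34 (chromosome 5, 86889767 to 86906937), a gene of the steroid-conjugating Ugt2b subfamily, was close to the detection limit. Its RPKM was 0.0836 and 0.0510 in male pools, 0.120 and 0.0572 in female pools, 0.154 and 0.254 in flushed females and 0.0873 and 0.146 in flushed males. Female pool 1 lay among the flushed mice. The log2 difference of 0.97 (SE 0.36, edgeR adjusted p = 0.049) missed the threshold in DESeq2 (0.15) and limma-voom (0.054), and without any 1 of male pool 2, female pool 1, female pool 2, flushed female 2, flushed female 3 or flushed male 3 (0.063 to 0.19).

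Of the Ugt1a genes, 0 of 6 tested passed, while 2 of them had no overlap between the preparations. Over all tested genes 45.5% passed and 41.7% had no overlap. Ugt1a6b, a phenol-conjugating form, read 1.89 and 1.29 RPKM in male pools, 1.64 and 1.66 in female pools, 1.30 and 1.83 in flushed females and 1.44 and 1.56 in flushed males. Ugt1a7c read 0.871 and 0.898 RPKM in male pools, 0.866 and 0.666 in female pools, 1.24 and 0.947 in flushed females and 1.06 and 0.549 in flushed males. In both the preparations overlapped. Ugt1a2 read 0.0856 and 0.208 RPKM in male pools, 0.240 and 0.254 in female pools, 0.266 and 0.345 in flushed females and 0.394 and 0.549 in flushed males. Its 4 flushed libraries lay above its 4 pools, with a log2 difference of 0.93 (SE 0.35) and an edgeR adjusted p of 0.051 that was 0.046 without flushed female 2, 0.037 with no scaling beyond the total count and 0.017 with no filter. Ugt1a5 had no overlap either (0.84, SE 0.36, adjusted p = 0.08, and 0.031 without male pool 1), while Ugt1a6a and Ugt1a1 gave 0.19 and 0.08. Ugt1a6b shares 70.9% of its 100-base windows with other genes, mostly Ugt1a6a, and had fractional counts in 7 libraries.

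Of 9 tested sulfotransferase genes, 4 rose and 2 fell, beside 22.6% and 22.9% of all tested genes. The 2 that fell are near the share of all genes. Sult1e1, the estrogen sulfotransferase (chromosome 5, 87575969 to 87591594), read 7.44 and 6.38 RPKM in male pools, 7.95 and 8.15 in female pools, 13.6 and 14.9 in flushed females and 14.2 and 12.5 in flushed males. The lowest flushed library exceeded the highest pool, and Sult1e1 rose from 7.48 ± 0.791 to 13.8 ± 0.980 RPKM (SD, n = 4 each; log2 0.89, SE 0.09, 1.85-fold, edgeR adjusted p = 5.3e-05). Sult1d1, which sulfates catecholamines and eicosanoids in mouse (87554645 to 87569027), read 10.5 and 7.43 RPKM in male pools, 7.51 and 6.34 in female pools, 10.6 and 12.3 in flushed females and 10.1 and 11.0 in flushed males. Male pool 1 lay among the flushed mice, and the rise was 1.40-fold (log2 0.48, SE 0.13, edgeR adjusted p = 0.014, and 0.053 without female pool 2). Sult1b1, an enzyme for thyroid hormones and small phenols (87513339 to 87538195), read 1.67 and 1.90 RPKM in male pools, 1.94 and 1.64 in female pools, 2.30 and 3.79 in flushed females and 2.38 and 2.35 in flushed males. No library overlapped, and flushed female 3 stood apart at the top (log2 0.59, SE 0.17, 1.51-fold, edgeR adjusted p = 0.015, and 0.059 without female pool 2). Sult1a1 rose 1.34-fold from 10.2 ± 1.80 to 13.7 ± 2.72 RPKM with overlap (log2 0.42, SE 0.13, edgeR adjusted p = 0.02), a call lost without male pool 1, female pool 1, female pool 2, flushed female 2 or flushed female 3 (0.05 to 0.074).

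Sult4a1, the brain sulfotransferase without a settled substrate (chromosome 15, 84076097 to 84105754), was the member of the family with the highest level and went the other way. It read 20.5 and 26.4 RPKM in male pools, 19.9 and 26.9 in female pools, 17.0 and 16.4 in flushed females and 18.0 and 13.8 in flushed males. Every flushed mouse lay below every pool, and the fall was 1.43-fold (23.4 ± 3.74 to 16.3 ± 1.83 RPKM, log2 -0.52, SE 0.12, edgeR adjusted p = 0.0051). Sult2b1, the cholesterol sulfotransferase (chromosome 7, 45729983 to 45784669), read 0.178 and 0.218 RPKM in male pools, 0.224 and 0.323 in female pools, 0.0745 and 0.188 in flushed females and 0.0602 and 0.0911 in flushed males. Flushed female 3 lay among the pools, and the log2 difference was -1.18 (SE 0.34, edgeR adjusted p = 0.016), past the threshold no longer without male pool 2, female pool 2 or flushed female 2 (0.054 to 0.057). Sult1c1, Sult1c2 and Sult5a1 gave 0.11, -0.34 and 0.21 with no call.

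On chromosome 5, neighbouring members of both families rose. From Ugt2b34 to Sult1e1, 702 kb (86889767 to 87591594) hold 13 members, 5 of them tested, and all 5 rose in the flushed mice: Ugt2b34, Ugt2a2, Sult1b1, Sult1d1 and Sult1e1. Over all tested genes 22.6% rose. The other 8, Ugt2b and Ugt2a genes, had 0 to 47.5 counts over all libraries. Of their neighbours, Ythdc1, a reader of RNA methylation on the proximal side, also rose (log2 0.63, edgeR adjusted p = 5.8e-05). Tmprss11b, Tmprss11e, Odam and 2310003L06Rik did not pass (edgeR adjusted p 0.8, 0.82, 0.41 and 0.086). Their log2 differences were -0.25, 0.13, 0.71 and 1.52, so most pointed the same way as the members. With any 1 library left out, Ugt2a2 and Sult1e1 still passed. The log2 difference stayed positive in the other 3, at 0.38 to 0.66 for Sult1d1, 0.37 to 0.69 for Sult1b1 and 0.72 to 1.16 for Ugt2b34, and the call was lost in 1, 1 and 6 of the 8 fits.

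**Figure D5:**
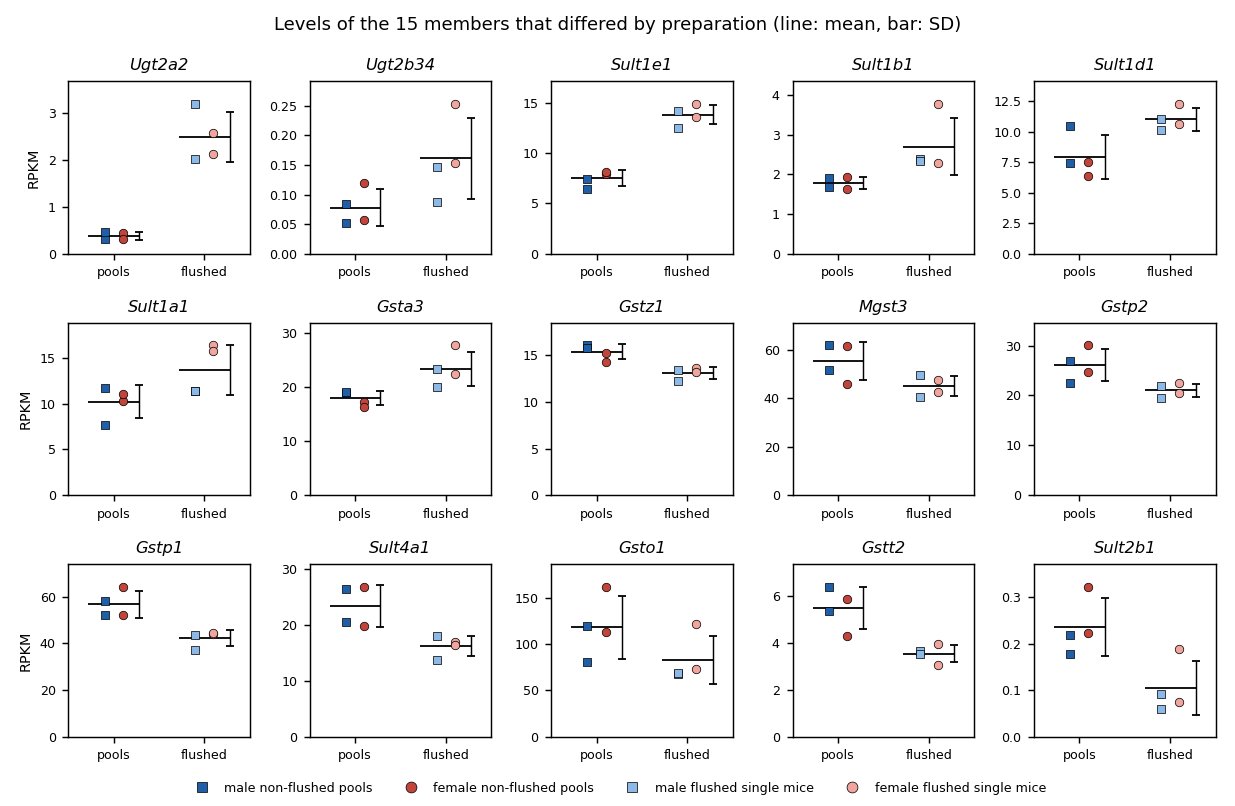
RPKM in each library of the 15 members that passed the edgeR test by preparation, from the largest rise (Ugt2a2) to the largest fall (Sult2b1); squares are males, circles females, lines the means and bars the SD of the 4 pools and the 4 flushed mice. Pools and flushed mice do not overlap in Ugt2a2, Sult1e1, Sult1b1, Gsta3, Gstz1, Gstp2, Gstp1, Sult4a1 and Gstt2.

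In the Gst family 1 of 20 tested genes rose and 5 fell, beside 22.6% and 22.9% of all tested genes. The 5 that fell are near the share of all genes. Gsta3, an alpha-class enzyme that in mouse conjugates the aflatoxin epoxide (chromosome 1, 21240589 to 21265661), read 18.9 and 19.2 RPKM in male pools, 17.3 and 16.4 in female pools, 22.4 and 27.8 in flushed females and 20.1 and 23.4 in flushed males. All flushed mice lay above all pools, a rise of 1.30-fold (18.0 ± 1.33 to 23.4 ± 3.21 RPKM, log2 0.38, SE 0.10, edgeR adjusted p = 0.0088). Its class member Gsta4, described above, had a log2 difference of -0.23 (SE 0.11, edgeR adjusted p = 0.1), which was -0.36 and passed (0.0093) without flushed female 3, and which also passed with no filter on low counts (0.016). Gsta2, a hepatic form, read 0.405 and 0.980 RPKM in male pools, 0.828 and 0.427 in female pools, 0.393 and 0.593 in flushed females and 0.196 and 0.503 in flushed males. Its preparations overlapped (log2 -0.65, SE 0.40, adjusted p = 0.21), and 28.4% of its windows occur in Gsta1 and other genes.

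Of the 3 tested pi-class genes of chromosome 19, Gstp1 and Gstp2 fell and Gstp3 was not called (log2 0.35). Over all tested genes 22.9% were lower. Gstp1, the main cytosolic transferase of many epithelia (4035407 to 4037921), read 52.3 and 58.4 RPKM in male pools, 52.2 and 64.4 in female pools, 44.0 and 44.4 in flushed females and 43.7 and 37.1 in flushed males. Gstp2, its paralog of lower activity (4040285 to 4042236), read 22.5 and 26.9 RPKM in male pools, 24.7 and 30.1 in female pools, 20.4 and 22.4 in flushed females and 21.8 and 19.4 in flushed males. In both, every flushed mouse lay below every pool. The log2 difference was -0.42 for Gstp1 (SE 0.08, 1.34-fold lower, edgeR adjusted p = 0.0021) and -0.31 for Gstp2 (SE 0.09, adjusted p = 0.022, and 0.054 to 0.093 without male pool 2, female pool 2, flushed female 2 or flushed male 3, and 0.14 with no scaling beyond the total count). The pair shares 25.1% of the 100-base windows of Gstp1 and 46.9% of those of Gstp2, and Gstp1 had fractional counts in 8 libraries. Multi-mapped reads were therefore divided, so the levels of both genes are uncertain and their falls may not be independent. The third gene, Gstp3, read 0.915 and 0.486 RPKM in male pools, 1.06 and 0.432 in female pools, 1.19 and 0.939 in flushed females and 0.671 and 0.952 in flushed males, with overlap and no call (adjusted p = 0.44).

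Gsto1 fell by 0.52 on the log2 scale (SE 0.18, from 118 ± 33.6 to 82.7 ± 26.1 RPKM, edgeR adjusted p = 0.033), with overlap between the preparations. The call was lost without male pool 2, female pool 1, flushed female 2, flushed male 1 or flushed male 3 (0.072 to 0.14, log2 -0.53 to -0.37), in DESeq2 (0.064) and with no scaling beyond the total count (0.097). Gsto2, with a log2 difference of 0.02, was not called. The zeta-class gene Gstz1, encoding maleylacetoacetate isomerase of tyrosine breakdown (chromosome 12, 87147707 to 87164721), read 16.1 and 15.8 RPKM in male pools, 14.3 and 15.3 in female pools, 13.6 and 13.2 in flushed females and 13.4 and 12.2 in flushed males. No pool overlapped a flushed mouse, and the fall of 1.17-fold (log2 -0.23, SE 0.07, edgeR adjusted p = 0.02) was no longer past the threshold without male pool 1 or male pool 2 (0.079 and 0.076), with no filter on low counts (0.068) or with no scaling beyond the total count (0.18).

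Theta-class genes of chromosome 10 gave 1 call of 3, beside 45.5% of all tested genes called. Gstt2 (75831845 to 75834881) read 5.37 and 6.41 RPKM in male pools, 4.30 and 5.89 in female pools, 3.96 and 3.06 in flushed females and 3.65 and 3.55 in flushed males. Every flushed mouse was below every pool, and the fall was 1.54-fold (log2 -0.62, SE 0.14, edgeR adjusted p = 0.0049). Gstt1 read 10.3 and 9.88 RPKM in male pools, 9.24 and 10.4 in female pools, 8.45 and 9.66 in flushed females and 8.79 and 10.5 in flushed males. Gstt3 read 6.23 and 5.31 RPKM in male pools, 4.85 and 5.93 in female pools, 4.98 and 4.70 in flushed females and 4.68 and 5.21 in flushed males. Both overlapped, at log2 -0.09 and -0.19 (adjusted p 0.43 and 0.12), and Gstt3 passed without female pool 1 (0.042). Gstk1, the kappa-class enzyme of mitochondria and peroxisomes, read 7.73 and 6.80 RPKM in male pools, 7.17 and 6.99 in female pools, 6.33 and 5.17 in flushed females and 6.15 and 6.77 in flushed males. Its flushed mice all lay below its pools, yet the difference of -0.24 (SE 0.10) had an edgeR adjusted p of 0.072. None of the 7 mu-class genes passed: their log2 differences ran from -0.17 to 0.14 (smallest adjusted p 0.21).

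Of the membrane-bound transferases, Mgst3, which has glutathione peroxidase activity (chromosome 1, 167371966 to 167393841), read 51.6 and 62.0 RPKM in male pools, 45.8 and 61.6 in female pools, 47.6 and 42.8 in flushed females and 49.7 and 40.7 in flushed males. Female pool 1 lay among the flushed mice. The log2 difference of -0.29 (SE 0.10, edgeR adjusted p = 0.044) missed the threshold in limma-voom (0.053), with no scaling beyond the total count (0.19) and without male pool 1, male pool 2, female pool 2, flushed female 2, flushed female 3 or flushed male 3 (0.053 to 0.17). Mgst1, the detoxifying form of the endoplasmic reticulum and outer mitochondrial membrane, read 23 and 24.2 RPKM in male pools, 23.1 and 24.1 in female pools, 25.7 and 27.8 in flushed females and 25.7 and 23.5 in flushed males. Its libraries lay close together with a log2 difference of 0.12 (SE 0.06, adjusted p = 0.11, and 0.012 with no scaling), and Mgst2 gave -0.06 (SE 0.34).

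Genes linked to the supply of the conjugation reactions, from lists drawn up for these pathways, differed by preparation as follows, and 0 of them passed the test by sex. Over all tested genes 22.6% rose and 22.9% fell by preparation. Of 6 genes that make, carry or use UDP-glucuronic acid or its precursor, 3 rose and 0 fell. Among the 3 was Uxs1 (log2 0.26, edgeR adjusted p = 0.0024), whose enzyme uses up UDP-glucuronic acid. Ugdh, whose enzyme makes it, was not called (log2 -0.08, adjusted p = 0.41). Ugp2, which makes UDP-glucose, rose from 26.1 ± 2.23 to 39.7 ± 2.19 RPKM (log2 0.60, edgeR adjusted p = 1.1e-04), and the nucleotide sugar transporter Slc35d1 rose by 0.52 (0.0013). Of 10 genes for PAPS and sulfate, 3 rose and 3 fell. Papss1, a synthase of PAPS, fell by 0.32 (adjusted p = 0.0013) and Impad1, a phosphatase that clears the product left by sulfation in the Golgi, rose by 0.55 (5.0e-05). For glutathione synthesis and turnover, 4 of 17 rose and 4 fell, near the shares of all genes. Gclm, the modifier subunit of the limiting enzyme, rose by 0.40 (adjusted p = 2.7e-04), and the transpeptidase gene Ggt6 fell by 1.06 (0.004).

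Of 21 genes for other glutathione-dependent enzymes and for proteins of related fold, 12 were lower and 2 higher. Over all tested genes the shares were 22.9% and 22.6%. The 12 include Vars, Eef1g and Clic1, which encode a tRNA synthetase, an elongation factor and a chloride channel protein. The 2 higher were Clic4 and Gdap1. The median log2 difference of the 21 genes was -0.25 beside -0.02 over all genes. The peroxidase genes Gpx3 (152 ± 9.22 to 98.0 ± 2.93 RPKM, log2 -0.63, edgeR adjusted p = 5.2e-05) and Gpx1 (-0.58, 8.0e-05) had the smallest p. Of 17 genes of the Nrf2 pathway, the transcription factor route that acts through the antioxidant response element, 7 fell and 1 rose. The catalase gene Cat changed by -0.35 and the epoxide hydrolase gene Ephx1 by -0.31 (edgeR adjusted p = 8.2e-04 and 0.0031). The 7 include Keap1, the inhibitor of Nrf2 (-0.30). Gclc, Gclm and Slc7a11, Nrf2 targets counted above with glutathione synthesis, rose (log2 0.24, 0.40 and 0.42). The counts therefore give no direction for the route. Among 10 xenobiotic receptor genes, Rxra fell by 0.26 (0.0058) and 0 rose, and Arnt, next in p, gave 0.16 (0.071).

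Of 13 transporters, a list that holds Slco uptake carriers beside efflux pumps, 3 rose and 1 fell. Over all tested genes the shares were 22.6% and 22.9%, and the 3 that rose are near that share. Among the 3 was the uptake carrier Slco1a4 (log2 0.50, edgeR adjusted p = 0.021). Abcg2, a carrier of sulfate and glucuronide conjugates, stood at 0.50 (edgeR adjusted p = 1.5e-04) and Abcc4 at -0.25 (0.006). Among 24 phase I enzymes of nasal tissue 7 rose and 5 fell, near the shares of all genes. They were led by the monooxygenase gene Fmo1 (9.21 ± 0.783 to 17.0 ± 3.18 RPKM, log2 0.87, edgeR adjusted p = 2.8e-05) and the carbonyl reductase gene Cbr1 (-0.55, 2.9e-04). Other conjugating enzymes gave 2 higher and 4 lower of 11. Ugt8a, the ceramide galactosyltransferase of myelin lipids, rose by 1.02 (edgeR adjusted p = 1.2e-04) and the tyrosylprotein sulfotransferase gene Tpst1 fell by 0.55 (3.4e-04). Of 7 deconjugating enzymes, the sulfatase gene Arsk rose by 0.56 (edgeR adjusted p = 5.3e-04), while 2 fell, among them Gusb, the beta-glucuronidase, by 0.31 (0.0018).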

How the data were processed

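Alignment used STAR 2.7.1a and the GRCm38 build and counting used featureCounts 1.6.5, per the submitters' processing notes. Each library's file, as deposited by the authors, holds expected counts per gene. Multi-mapped reads entered as fractions, only exons on the reverse strand were counted, and reads that fell on more than 1 gene were dropped, per the file headers. The file headers record no normalization, and totals differ between libraries. Members were found by GENCODE M21 symbol, and 8 pseudogenes were left out. The members and all gene lists were chosen with earlier results of these data known. Counts were rounded and tested with edgeR 4.0.16 (R 4.3.3): TMM, filterByExpr on the 4 groups, quasi-likelihood F test with sex and preparation as additive terms, and Benjamini-Hochberg adjustment over 20601 genes. The SE is the log2 difference divided by the square root of F. RPKM used unrounded counts and the exon length of the files. Values in every library are given for the 10 members of highest mean RPKM, the 3 highest of each class, the 12 with the smallest p by preparation among those that passed and the 5 by sex; of each pathway list the 2 genes with the smallest p by preparation are named. Alternatives were DESeq2 1.42.0, limma-voom (limma 3.58.1), other scalings, no filter and each library left out. On simulated data of 20601 genes the preparation test recovered 91% of 100 changes of log2 1 and the sex test 92%. Of log2 2 they recovered 100% and 99%, with 16 and 10 false calls beside the 200 changed genes of each simulation. The changed genes were drawn from those with a mean above 1 CPM, and no change below log2 1 was simulated. The rates therefore do not cover smaller differences or genes of lower level.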

Additional observations from a re-analysis of the deposited data

Results flagged for a closer look

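Within the 4 pools or the 4 flushed mice, the gap of the highest or lowest library to the next exceeded Dixon's 95% critical value for 4 values in 7 of 62 cases checked; chance flags about 1 in 20. Flushed female 3 was the highest flushed library in 4 of them. Its RPKM was 119 for Gsta4 against 83.1 to 89.1 in the other 3 flushed mice, 122 for Gsto1 against 67.3 to 72.6, 3.79 for Sult1b1 against 2.30 to 2.38, and 0.941 for Mgst2 against 0.364 to 0.454. Flushed male 3 was lowest for Gstp1, with 37.1 RPKM against 43.7 to 44.4. Among pools, female pool 1 was highest for Gsto2 (1.94 against 1.55 to 1.59) and female pool 2 lowest for Ugt1a7c (0.666 against 0.866 to 0.898).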

How the results depend on the processing

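By preparation, 15 members passed, and 8 to 14 with 1 library left out (3 to 7 higher, 3 to 8 lower). The count fell to 9 without male pool 2 (3 lower) and to 8 without female pool 2 (3 higher and 5 lower), and the number lower was 4 without flushed female 2 and 5 without flushed male 3. It was 15 with RLE size factors, 16 without receptor genes in the library size, 16 with no filter and 13 with DESeq2 or limma-voom. With no scaling beyond the total count, which moved the median of all genes from -0.017 to 0.095 by preparation and from -0.003 to -0.120 by sex, 9 members were higher and 4 lower, and the share of called genes that were higher went from 49.7 to 68.0%. By sex the count was 0 under each alternative except no filter, where it was 3, and it was 0 in every fit with 1 library left out. The interaction count was 0 with DESeq2 and with no filter. Over the members tested by preparation, calls were lost in 42 and gained in 9 combinations of member and setting, and none changed direction; apart from the settings themselves the cause was not tested. Ugt2a2, Sult1e1, Gsta3, Gstp1, Gstt2 and Sult4a1 passed in all 14 alternatives. No paired analysis was possible because pools carry no replicate numbers in the labels and flushed males and females share only 1 number. Of the 27 members not tested, 15 had 0 counts in every library.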

Other observations

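Of the 8 pseudogenes of these families that were left out, Gstp-ps had 125 to 197 and Gstm2-ps1 19.7 to 38.2 counts in a library; 1 of the other 6 had a count, Sult2a-ps2 with 1.00 in all.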
